A study of Mus musculus with 13 samples.

Results

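The 6 testis libraries labelled Wfdc15a knockout carry a number in their titles, 1 for replicates 1 to 3 (KO1) and 2 for replicates 4 to 6 (KO2), and the KO2 libraries were compared with the KO1 libraries. They are 6 of 13 libraries of the study. The 2 sets were formed by the titles, and the comparison was chosen with earlier results of these data known. The labels do not say what the number stands for. Whole testes came from mice aged 15 weeks, with the outer capsule removed, and the RNA was sequenced by Smart-seq2, a full-length method for small amounts of RNA. All 6 KO libraries have the genotype label Wfdc15a-/-, and the labels name neither the allele nor the strain. The 7 control libraries, 3 wild type (WT) and 4 heterozygous (Het, labelled Wfdc15a+/-), serve only as reference levels. Their title number is 2, except for Het replicate 1, which has the number 1.

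Wfdc15a belongs to the whey acidic protein domain family, whose members include inhibitors of serine proteases and antimicrobial proteins. The testis holds germ cells in successive stages beside Sertoli cells, which nurse them, Leydig cells, which make androgens, and resident macrophages. Complement is a cascade of blood and tissue proteins that marks and lyses cells, and class I molecules of the major histocompatibility complex (MHC), such as H2-K1, show peptides cut by the proteasome at the cell surface. In bulk tissue, fewer cells of a type and less RNA per cell cannot be told apart.

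Reads in genes came to 5.72 to 7.57 M in the KO1 libraries, 4.22 to 8.23 M in the KO2 libraries and 5.64 to 10.1 M in the controls. Levels are given in RPM, reads per 1e6 of the total on which the authors scaled each library (4.51 to 11.1 M, slightly above its reads in genes), for which 3 reads, the limit that a count of 0 allows, were worth 0.27 to 0.665 RPM. Differences are KO2 minus KO1 on the log2(RPM + 1) scale, from limma over the 16235 genes that averaged 1 RPM or more, and a gene is called where its Benjamini-Hochberg adjusted p is below 0.05. By the root mean square of the log2 differences over these genes, the 9 pairs of a KO1 and a KO2 library lay 0.61 to 0.65 apart. Pairs within KO1 lay 0.56 to 0.59 apart and pairs within KO2 0.54 to 0.59. On the first principal component of all tested genes, which held 31.1% of the variance, the KO1 libraries lay at 37.9 to 48.3, the KO2 libraries at 15.7 to 25.8 and the controls at -39.3 to -11.9. On the second, which held 9.93%, the KO2 libraries lay at 25.1 to 27.0 and the KO1 libraries at -22.8 to -16.1. Het replicate 1 lay at -31.5 there, on the side of the KO1 libraries with its title number, and the 6 controls of number 2 lay at -3.35 to 5.22.

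**Figure D1:**
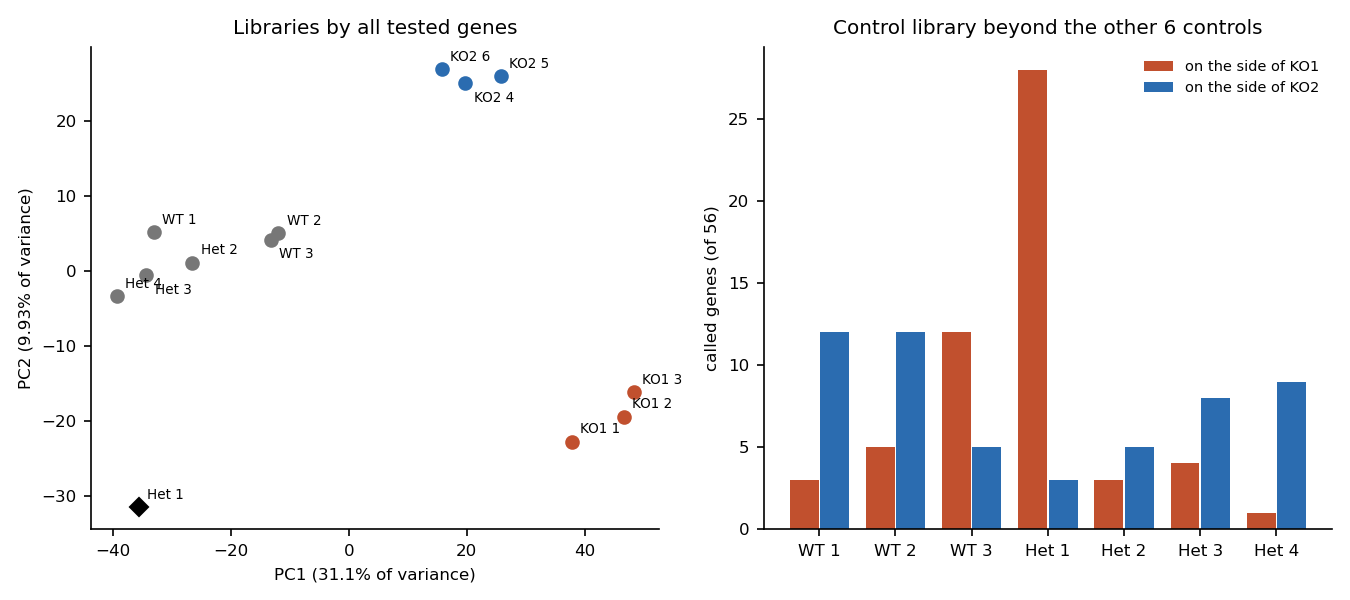
Left, the 13 libraries on the first 2 principal components of log2(RPM + 1) over all tested genes (arbitrary units, share of variance on each axis). Right, for each control library, the number of the 56 called genes at which it lay beyond the other 6 controls on the side of KO1 (red) or of KO2 (blue). The KO1 and KO2 libraries separate on the second component, and Het replicate 1 (black diamond) lies with KO1 there and has the tallest bar, at 28 genes.

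Between the sets 56 genes were called, 0.345% of those tested. Of these, 25 were higher in KO2 (0.154%) and 31 were higher in KO1 (0.191%). The 3 libraries of one set lay apart from the 3 of the other at all 56, as they did at 2800 of all tested genes (17.2%), and 2049 genes (12.6%) had an unadjusted p under 0.05. The absolute difference of the called genes ran from 0.62 to 3.61 with a median of 1.43, beside a median difference of -0.03 over all tested genes. The genes higher in KO1 included the complement genes C4b, C7 and Serping1 and the adhesion molecule Vcam1. Those higher in KO2 included H2-K1, the proteasome subunit Psmb9, the kallikrein Klk1b16 and Wfdc15a itself. The same 13 libraries gave 3686 called genes for KO1 against the controls (22.7%, of which 17% higher and 5.74% lower). For KO2 against the controls they gave 2020 (12.4%, of which 7.8% higher and 4.64% lower), and both comparisons use those controls. Of the 7 controls 6 carry title number 2, so the KO1 comparison mixes genotype with title number more than the KO2 comparison does. The 2 counts thus do not tell which set differs more by genotype.

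The calls rested on few libraries. Only 6 of the 56, among them C4b, C7, Tsc22d1, Fam132a and Ccl8, stayed called when any 1 of the 13 libraries was left out, and each of the other 50 lost its call without at least 1 KO library, with adjusted p of up to 0.205. The number of called genes fell to 28, 11 and 18 without KO1 replicates 1, 2 and 3, and to 29, 18 and 27 without KO2 replicates 4, 5 and 6. It rose to 114 without Het replicate 1.

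**Figure D2:**
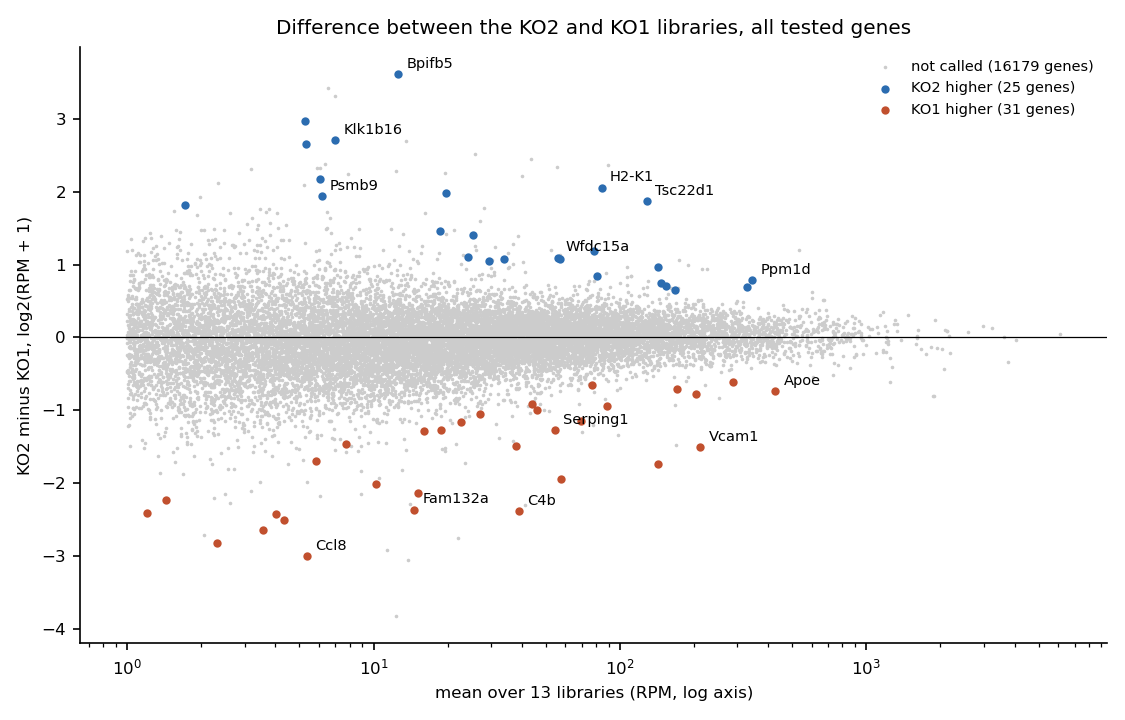
Each tested gene by its mean level over 13 libraries (RPM, log axis) and its difference KO2 minus KO1 on the log2(RPM + 1) scale. The 25 genes called higher in KO2 (blue) and the 31 called higher in KO1 (red) lie among 16179 genes that were not called (grey), and low genes scatter more than high ones.

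The targeted gene differed between the sets. Wfdc15a (chromosome 2, 164198863 to 164200130, mm10) was at 31.5, 19.4 and 33.4 RPM in KO1 replicates 1 to 3 and at 54.1, 48.1 and 81.3 RPM in KO2 replicates 4 to 6. The controls held 53.5 to 85.8 RPM with a median of 58.2 RPM, and Het replicate 1 held 55.9 RPM. All KO1 libraries were thus below all controls, while the KO2 libraries overlapped them, with replicate 5 below the lowest control. The libraries labelled KO2 thus held the targeted gene at levels that overlapped the controls. The difference between the sets was 1.10 (SE 0.229, adjusted p = 0.0412 by limma), and the two-sided exact permutation p was 0.1, the smallest that 3 against 3 can give. Against the controls the KO1 mean differed by -1.21 and the KO2 mean by -0.11. Without WT replicate 2 the adjusted p was 0.0512, and without a KO library it was 0.0595 to 0.205, with differences of 0.86 to 1.25. The labels do not give the deleted stretch, so reads from outside it may count for Wfdc15a. Of 107 tested genes within 5 Mb on either side, Wfdc15a was the only 1 called, and at 20 of them the sets did not overlap, a share near the 17.2% of all tested genes. The family has 7 tested members, of which Wfdc15a alone was called.

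Genes of the complement cascade included 3 of the calls with KO1 higher. Of 21 tested genes of the cascade and its regulators, 3 were called higher in KO1 and none higher in KO2. The shares of all tested genes were 0.191% and 0.154%. Of the 21, 11 had an unadjusted p under 0.05, beside 12.6% of all tested genes, and the median difference was -0.81. At 11 of the 21 the KO1 libraries lay above the KO2 libraries without overlap, and at 1 below, beside 9.79% and 7.45% of all tested genes. Their summed level was 623 to 796 RPM in the KO1 libraries, 307 to 396 RPM in the KO2 libraries and 230 to 300 RPM in the controls. The KO1, KO2 and control libraries thus did not overlap in the sum. The sum includes C4b, C7 and Serping1, which were called for this difference, so it is no separate result.

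C4b, which encodes a component that joins the classical and lectin pathways, was at 112, 134 and 99.9 RPM in the KO1 libraries and at 14.4, 35.8 and 18.2 RPM in the KO2 libraries. The controls held 10.1 to 18.1 RPM (median 13.1), so that KO1 lay apart and KO2 reached into their range. The difference was -2.38 (SE 0.255, adjusted p = 8.4e-05), a fold of 5.20. C4a, its near-identical neighbour, was at 6.87, 11.6 and 8.18 RPM in KO1 and at 3.77, 3.95 and 0.918 RPM in KO2 (-1.44, adjusted p = 0.163), and reads may be split between the pair. C7, a part of the pore that complement forms in membranes, was at 133, 156 and 131 RPM in KO1 and at 67.1, 61.9 and 58.0 RPM in KO2. Both sets were above the controls (38.05 to 49.0 RPM), KO1 more so, with a difference of -1.15 (SE 0.147, adjusted p = 0.000931). Serping1, the inhibitor of the first complement proteases, was at 83.2, 134 and 127 RPM in KO1 and at 39.4, 61.3 and 39.7 RPM in KO2 (-1.28, SE 0.227, adjusted p = 0.0173). The controls held 23.5 to 51.1 RPM, with a median of 28.9. Its call was lost without KO1 replicate 2 or 3 or KO2 replicate 4 or 6, where the adjusted p reached 0.116.

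C3, the central component, did not pass, at 28.0, 58.0 and 60.2 RPM in KO1 and at 6.43, 28.2 and 18.9 RPM in KO2 (-1.53, SE 0.529, adjusted p = 0.227). Its sets overlapped through KO1 replicate 1 and KO2 replicate 5. The C1q chains C1qa, C1qb and C1qc, which start the classical pathway and which macrophages make, had differences of -0.67, -0.81 and -0.87, none called. C8g was the 1 gene of the list with KO2 above KO1 without overlap, at 32.9, 35.4 and 26.7 RPM against 37.2, 46.6 and 67.5 RPM (0.62, adjusted p = 0.175).

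Most macrophage markers had lower values in KO2, without a call. None of 22 tested markers was called by limma or limma-voom, though 12 had an unadjusted p under 0.05, beside 12.6% of all tested genes. Of the 22, 11 had KO1 above KO2 without overlap and none the reverse, beside 9.79% and 7.45% of all tested genes. The median difference was -0.54, and 3 markers had a difference above 0, up to 0.82. The smallest p values of the list gave Cd163, a scavenger receptor, at 9.11, 7.95 and 8.51 RPM in KO1 against 2.66, 2.58 and 1.49 RPM in KO2 (-1.57, adjusted p = 0.101). The lysosomal protein Cd68 stood at 14.4, 12.6 and 12.9 RPM against 5.98, 2.28 and 6.31 RPM (-1.37, adjusted p = 0.107), and the lysozyme Lyz2 was at 68.9, 112 and 85.2 RPM against 60.3, 51.0 and 42.8 RPM (-0.76, adjusted p = 0.1102). Averaged over the list, the level less the control mean was 1.05 to 1.52 in KO1 and 0.52 to 0.87 in KO2, with controls at -0.22 to 0.37. The part of these markers in the complement differences was not tested.

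Ccl8, a chemokine that attracts monocytes, was at 25.2, 15.4 and 16.4 RPM in KO1 and at 0.443, 4.55 and 0.803 RPM in KO2. The controls held 0.275 to 1.39 RPM, so that only KO1 stood wholly above them. The difference was -3.00 (SE 0.444, adjusted p = 0.00381). Vcam1, to which leukocytes bind, was at 452, 498 and 501 RPM in KO1 and at 133, 202 and 183 RPM in KO2, beside 52.1 to 169 RPM in the controls. Its difference was -1.50 (SE 0.322, adjusted p = 0.0454), and the adjusted p was up to 0.167 without Het replicate 3 or 4 or without any KO library. Vcam1 was the 1 called gene of 27 tested in the list of targets of tumour necrosis factor and NF-kB, beside 0.345% of all tested genes. The list's median difference was -0.02.

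None of 23 tested heat shock genes and none of 24 tested genes of the unfolded protein and integrated stress response was called between the sets by limma or limma-voom (1 and 4 with an unadjusted p under 0.05, medians -0.07 and -0.15). Of the 24, 6 had KO1 above KO2 without overlap and none the reverse, beside 9.79% and 7.45% of all tested genes. The level of these 24 less the control mean was 0.38 to 0.50 in KO1 and 0.12 to 0.25 in KO2, with controls at -0.08 to 0.11.

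**Figure D3:**
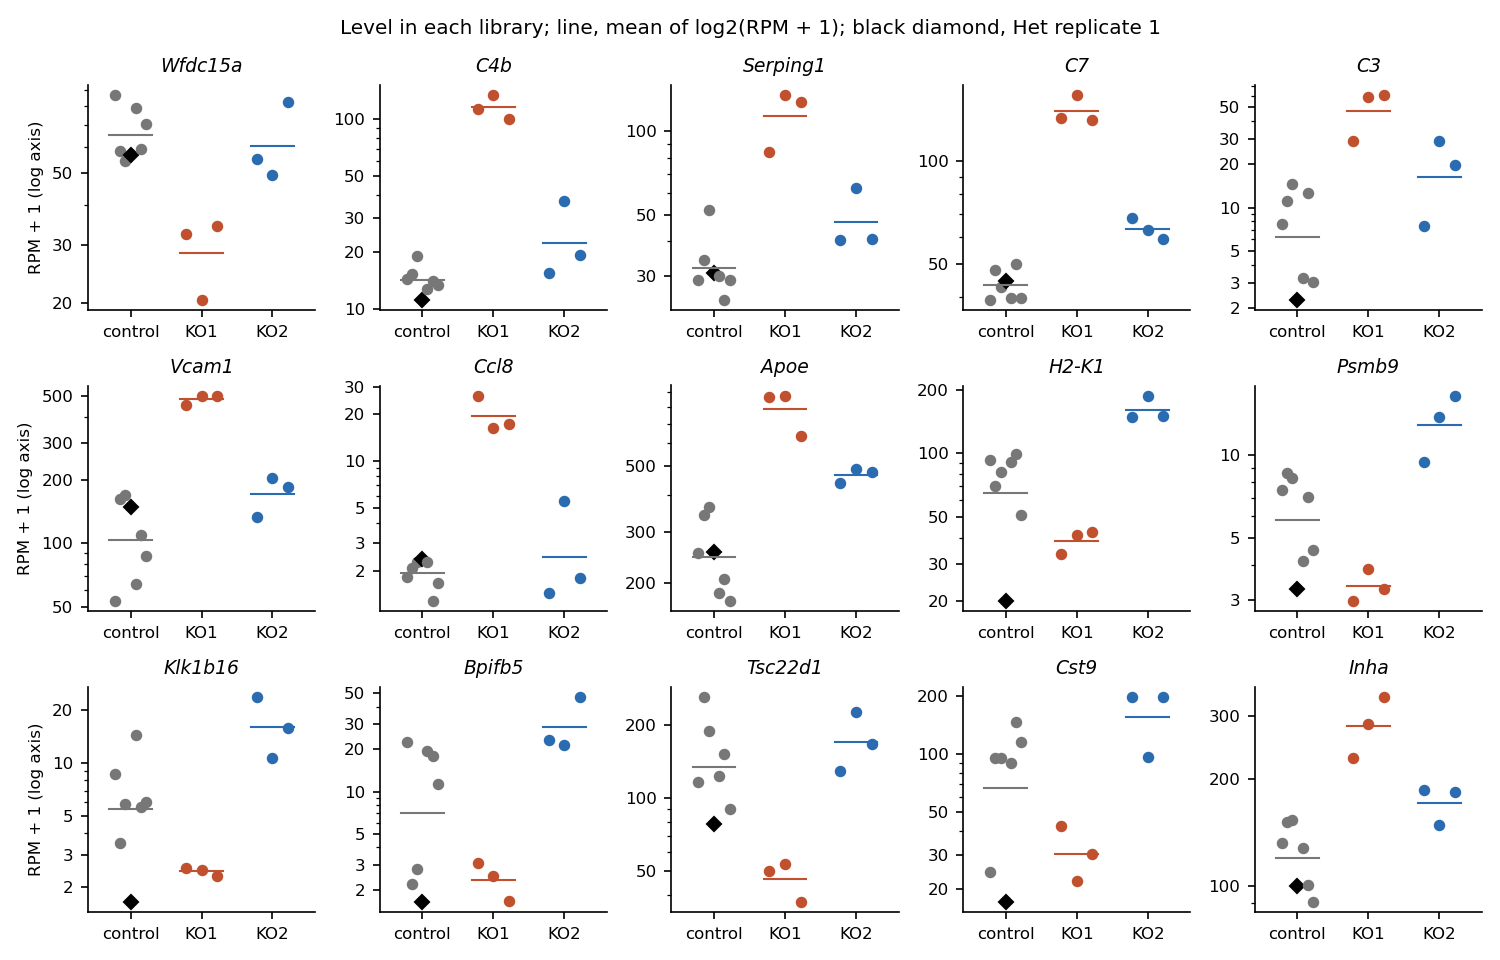
Level of 15 genes in each library (RPM + 1, log axis) for the 7 controls (grey, with Het replicate 1 as a black diamond), the 3 KO1 libraries (red) and the 3 KO2 libraries (blue), with the mean of log2(RPM + 1) of each group as a line. C4b and Ccl8 have KO1 above all controls, whereas H2-K1, Klk1b16 and Bpifb5 have KO2 above KO1 with Het replicate 1 at the bottom of the controls.

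Among other genes called higher in KO1 were Apoe, Abca1 and Gm2a. Apoe, the main apolipoprotein of tissue cells, was at 864, 870 and 635 RPM in KO1 and at 439, 488 and 479 RPM in KO2, with 173 to 364 RPM in the controls (-0.74, SE 0.153, adjusted p = 0.0408). Both sets were above the controls. Abca1, which exports cholesterol to apolipoproteins, was at 161, 189 and 165 RPM against 91.7, 87.5 and 87.3 RPM (-0.94, adjusted p = 0.0408). Gm2a, the activator protein for ganglioside breakdown in lysosomes, was at 392, 486 and 511 RPM against 302, 305 and 292 RPM (-0.62, adjusted p = 0.0408). The 3 calls were lost without WT replicate 2 and without 5 or all 6 of the KO libraries in turn, with adjusted p of up to 0.185, and these 3 genes were named after their values were seen. None of 11 tested cathepsins was called, while 4 had KO1 above KO2 without overlap and none the reverse, beside the same shares of all tested genes (median -0.37, 2 with an unadjusted p under 0.05). None of 23 tested genes of cholesterol synthesis was called (median 0.04, 1 with an unadjusted p under 0.05).

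Of 35 tested Sertoli cell genes, only Inha, the alpha chain of inhibin, was called, beside 0.345% of all tested genes. It was at 227, 284 and 339 RPM in KO1 and at 185, 147 and 182 RPM in KO2, with 89.3 to 153 RPM in the controls (-0.71, SE 0.152, adjusted p = 0.0454). Its call was lost without any 1 of WT replicates 2 and 3, Het replicate 3, KO1 replicates 2 and 3 and KO2 replicates 4 to 6, where the adjusted p reached 0.169. Of the 35, 12 had an unadjusted p under 0.05, beside 12.6% of all tested genes, and the median difference was -0.26. At 11 of the 35 KO1 lay above KO2 without overlap and at 1 below, beside 9.79% and 7.45% of all tested genes. The exception was Cst9, a cystatin-like gene, at 41.2, 21.0 and 29.3 RPM in KO1 and at 197, 95.8 and 198 RPM in KO2 (2.36, SE 0.583, adjusted p = 0.0817). The controls held up to 147 RPM, with Het replicate 1 the lowest at 16.03 RPM.

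Leydig cell genes showed no call among 23 tested by limma or limma-voom. Of them 9 had an unadjusted p under 0.05, beside 12.6% of all tested genes. Their median difference was 0.02, but the differences ran both ways, from -1.34 to 2.44. At 3 KO2 lay above KO1 without overlap and at 5 below, beside 7.45% and 9.79% of all tested genes. Insl3, a peptide hormone of these cells, was at 3258, 4837 and 3017 RPM in KO1 and at 1941, 2171 and 2108 RPM in KO2. Its sets did not overlap and the difference was -0.81 (SE 0.191, adjusted p = 0.0750). Cyp17a1, an enzyme of androgen synthesis, was at 2195, 3026 and 2417 RPM against 2246, 1988 and 2267 RPM (-0.22, adjusted p = 0.554).

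No germ cell list had a call. None of 27 late spermatid, 21 round spermatid, 18 pachytene and diplotene, 18 early meiotic, 13 differentiating and 12 undifferentiated spermatogonial genes tested was called by limma or limma-voom. Their numbers with an unadjusted p under 0.05 were 2, 2, 1, 3, 3 and 3. Late spermatid genes had a median difference of -0.15, while their medians against the controls were -0.71 for KO1 and -0.86 for KO2. Prm1, a protamine that packs sperm DNA, was at 887, 982 and 637 RPM in KO1 and at 659, 516 and 700 RPM in KO2, with 1317 to 2480 RPM in the controls (-0.41, 95% interval -0.86 to 0.04, adjusted p = 0.461). Both KO sets were thus below all controls, and they overlapped each other. The undifferentiated spermatogonial genes had the largest median of these lists, 0.40, and 11 of the 12 had a difference above 0. At 3 KO2 lay above KO1 without overlap and at none the reverse, beside 7.45% and 9.79% of all tested genes. The lowest p of the list was that of Sall4, a factor of spermatogonial stem cells, at 1.54, 2.61 and 1.80 RPM in KO1 and at 7.76, 6.07 and 5.74 RPM in KO2 (1.34, SE 0.332, adjusted p = 0.0817). The list's level less the control mean was -0.37 to -0.13 in KO1 and 0.26 to 0.33 in KO2, without overlap between the sets and both within the controls or at their edge (-0.42 to 0.30). Over all 34 lists, 28 had no call, and none of the 28 had one by limma-voom.

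**Figure D4:**
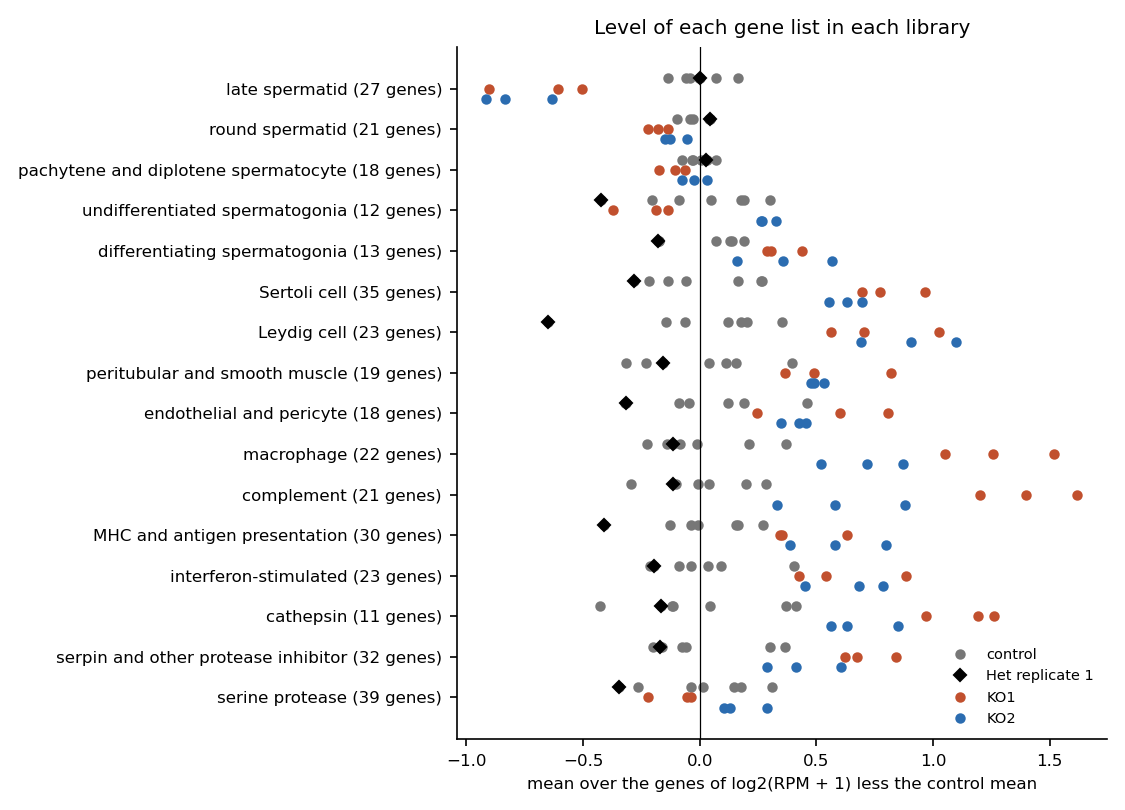
Level of 16 gene lists in each library, as log2(RPM + 1) minus the mean of the controls, averaged over the list's tested genes, for controls (grey, Het replicate 1 as a black diamond), KO1 (red) and KO2 (blue). The KO1 libraries lie above the KO2 libraries for the complement, macrophage, cathepsin and protease inhibitor lists. They lie below them for the undifferentiated spermatogonia and serine protease lists. The sets overlap for the other lists, among them the spermatid and Leydig cell lists.

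Of class I antigen presentation, 2 genes were called higher in KO2. Among 30 tested genes of the MHC and of antigen presentation, H2-K1 and Psmb9 were called higher in KO2 and none higher in KO1. The shares of all tested genes were 0.154% and 0.191%. Of the 30, 15 had an unadjusted p under 0.05, beside 12.6% of all tested genes. At 9 genes KO2 lay above KO1 without overlap and at 5 below, beside 7.45% and 9.79% of all tested genes, and the list's median was -0.02. H2-K1 and Psmb9 lie 181.7 kb apart on chromosome 17. The promoter windows of both (RefSeq, GRCm38.p6, 250 bases before to 50 after the gene's start, 5′ to 3′ on the gene's strand) are shown because these are the 2 called members. The H2-K1 window is chr17:34000298-34000597 on the minus strand, and the Psmb9 window is chr17:34187281-34187580 on the minus strand.
H2-K1: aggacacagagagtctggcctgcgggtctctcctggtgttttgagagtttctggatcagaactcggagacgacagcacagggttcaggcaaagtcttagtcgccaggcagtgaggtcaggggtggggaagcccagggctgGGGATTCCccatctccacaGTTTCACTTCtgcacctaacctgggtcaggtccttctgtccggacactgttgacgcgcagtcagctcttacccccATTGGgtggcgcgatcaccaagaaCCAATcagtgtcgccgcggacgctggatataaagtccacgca
Psmb9: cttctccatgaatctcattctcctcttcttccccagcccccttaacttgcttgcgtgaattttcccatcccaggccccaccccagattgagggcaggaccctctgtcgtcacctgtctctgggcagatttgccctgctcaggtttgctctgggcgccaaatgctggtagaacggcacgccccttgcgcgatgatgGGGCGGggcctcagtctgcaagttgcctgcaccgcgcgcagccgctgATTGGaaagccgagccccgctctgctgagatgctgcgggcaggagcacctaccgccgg

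Capitals in the H2-K1 window mark, in order, a match to GGGATTCC (NF-kB type), a match to the core of the interferon-stimulated response element and 2 matches to CCAAT, each searched on both strands. In the Psmb9 window they mark a match to GGGCGG (GC box) and then 1 to CCAAT on the other strand, and neither of the first 2 motifs has a match there. The H2-K1 window has no match to GGGCGG. Of 27025 promoter windows of this length, GGGATTCC was found in 1.07%, the interferon-response core in 1.77%, CCAAT in 37.9% and GGGCGG in 35.9%. The Psmb9 window shares 275 bases with that of Tap1, the neighbour read in the other direction, which carries peptides into the endoplasmic reticulum. A match is a description of the letters only.

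H2-K1 was at 32.4, 40.1 and 41.4 RPM in KO1 and at 147, 186 and 150 RPM in KO2. The controls held 19.1 to 98.4 RPM with a median of 80.3 RPM, so that KO2 lay above all of them and KO1 above 1 of them. The lowest control, at 19.1 RPM, was Het replicate 1, while the 6 controls of number 2 held more, from 50.03 RPM upwards. The difference was 2.06 (SE 0.368, adjusted p = 0.0173), a fold of 4.16. With the difference between the Het libraries of number 2 and number 1 subtracted, it was 0.11 (SE 0.357, adjusted p = 0.997). Psmb9 was at 1.96, 2.86 and 2.29 RPM in KO1 and at 8.42, 12.8 and 15.4 RPM in KO2, with controls at 2.27 to 7.64 RPM and Het replicate 1 again the lowest (1.94, SE 0.332, adjusted p = 0.0141). With the Het difference subtracted it was 1.30 (adjusted p = 0.918). The H2-K1 call was also lost without any 1 KO1 library or KO2 replicate 5 or 6 (adjusted p up to 0.0794), and that of Psmb9 without KO1 replicate 3 or KO2 replicate 5 or 6 (up to 0.0674).

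The other genes of the pathway went both ways. Tap1, which overlaps Psmb9 in the table so that reads may be shared, was at 6.73, 9.82 and 2.29 RPM in KO1 and at 13.5, 21.4 and 28.1 RPM in KO2 (1.70, adjusted p = 0.283). H2-D1, the other classical class I gene, was at 70.3, 90.1 and 81.6 RPM against 161, 160 and 127 RPM (0.88, adjusted p = 0.297), and Psmb8, another proteasome subunit of this kind, was at 7.01, 5.59 and 4.25 RPM against 9.53, 11.99 and 9.99 RPM (0.81, adjusted p = 0.340). B2m, the light chain of all class I molecules, had the opposite sign, at 81.7, 107 and 81.8 RPM in KO1 and 53.0, 69.2 and 45.9 RPM in KO2 (-0.69, adjusted p = 0.145). Class II genes did too, with H2-Ab1 at -0.88 (adjusted p = 0.172) and the invariant chain Cd74 at -1.46 (adjusted p = 0.222), neither called. None of 23 tested interferon-stimulated genes was called by limma or limma-voom, and none had an unadjusted p under 0.05 (median -0.02). The H2 genes are alike in sequence, so the split of reads among them is uncertain. From H2-K1 to C4a, a stretch of 0.827 Mb, 33 genes were tested, of which H2-K1, Psmb9 and C4b were called. The ends were set by H2-K1 and by C4a, the neighbour of C4b, so the 3 calls follow from the choice of the stretch. KO2 was higher without overlap at 10 of the 33 and KO1 at 3, beside 7.45% and 9.79% of all tested genes.

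**Figure D5:**
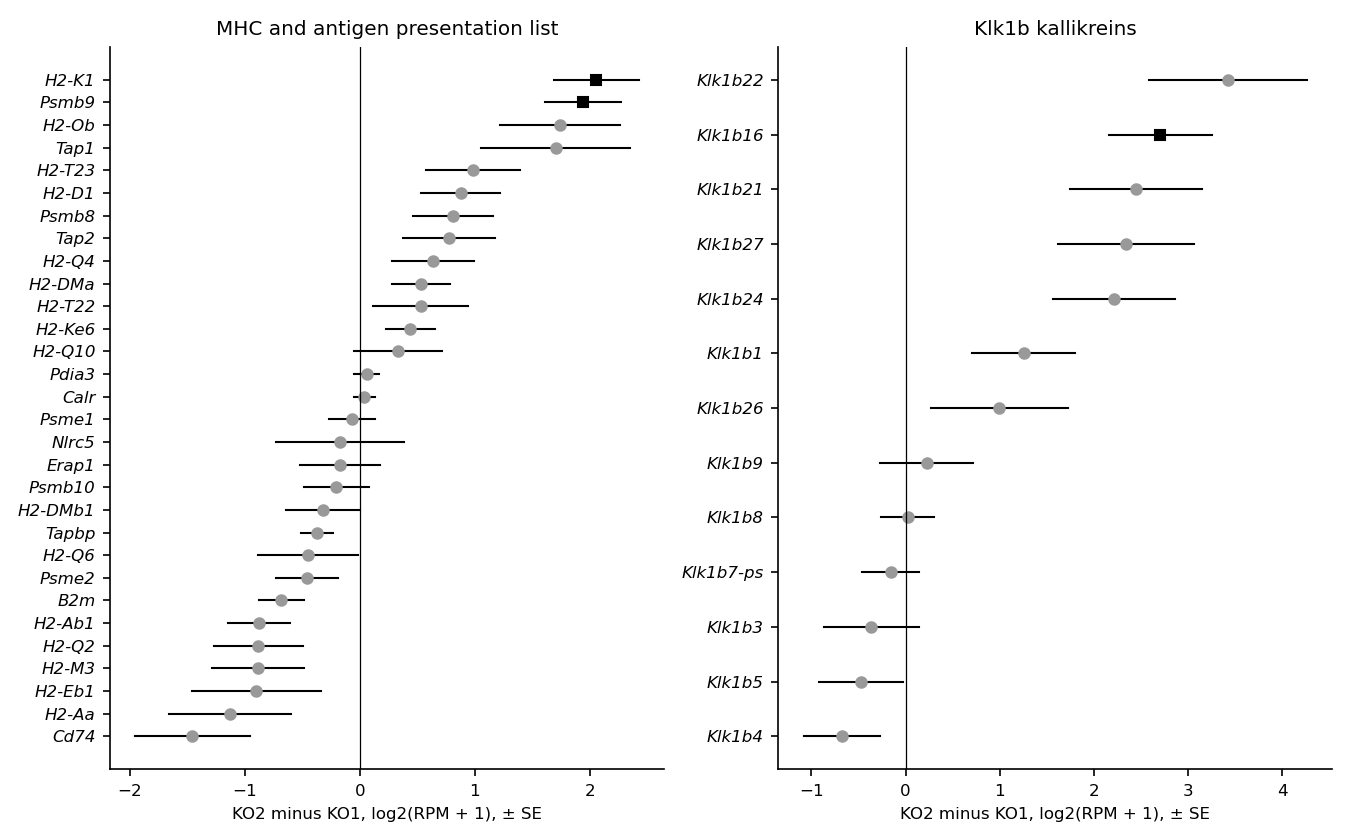
Difference KO2 minus KO1 on the log2(RPM + 1) scale with its SE for the 30 tested genes of the MHC and antigen presentation list (left) and the 13 tested Klk1b genes (right). Black squares are the called genes H2-K1, Psmb9 and Klk1b16, grey circles those not called, and the values of each family run from below 0 to above 2.

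Of the Klk1b kallikreins, serine proteases in a tandem cluster on chromosome 7, 1 was called, with KO2 higher. Klk1b16 was at 1.54, 1.49 and 1.31 RPM in KO1 and at 22.8, 9.72 and 14.9 RPM in KO2 (2.71, SE 0.544, adjusted p = 0.0407), from 31 and 297 reads. The controls held 0.631 to 13.5 RPM, Het replicate 1 being the lowest. Klk1b22 was at 0.14, 0.373 and 0.654 RPM in KO1 and at 33.9, 15.8 and 4.48 RPM in KO2 (3.43, SE 0.835, adjusted p = 0.0795). Their promoter windows, chr7:44137040-44137339 and chr7:44112423-44112722 on the plus strand (RefSeq, GRCm38.p6), are set beside each other to show how alike these copies are.
Klk1b16: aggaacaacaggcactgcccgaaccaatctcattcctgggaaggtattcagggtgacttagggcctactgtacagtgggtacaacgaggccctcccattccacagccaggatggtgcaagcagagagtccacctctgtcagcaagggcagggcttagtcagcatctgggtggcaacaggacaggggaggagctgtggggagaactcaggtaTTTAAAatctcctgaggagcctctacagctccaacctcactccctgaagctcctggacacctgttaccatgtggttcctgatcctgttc
Klk1b22: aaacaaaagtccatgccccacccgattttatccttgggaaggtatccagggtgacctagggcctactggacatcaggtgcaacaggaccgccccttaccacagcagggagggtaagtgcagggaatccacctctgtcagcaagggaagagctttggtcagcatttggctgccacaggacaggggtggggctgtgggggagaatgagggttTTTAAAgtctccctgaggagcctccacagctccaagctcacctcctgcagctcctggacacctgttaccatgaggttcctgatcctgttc

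Capitals mark the match to TTTAAA, a motif of the kind known as a TATA box, which 13.2% of all windows hold on either strand. The windows have 250 identical bases in 307 aligned columns (81.4%). Klk1b8, the copy with the highest mean in the controls (53.8 RPM), was at 23.4, 27.5 and 15.9 RPM in KO1 and at 35.5, 17.9 and 16.9 RPM in KO2, which overlapped (0.02, adjusted p = 0.986). Klk1b21, Klk1b24 and Klk1b27, copies known from Leydig cells, had KO1 values of 11.3 to 29.8 RPM and KO2 values of 59.4 to 242 RPM, with differences of 2.44, 2.22 and 2.34 (adjusted p = 0.145, 0.150 and 0.175). Of 13 tested Klk1b genes 6 had KO2 above KO1 without overlap and 1, Klk1b4, the reverse, beside 7.45% and 9.79% of all tested genes, and the differences ran from -0.68 to 3.43. The copies share sequence, so reads may be split among them and they do not count as separate measurements. Het replicate 1 held 1.77, 2.02 and 3.41 RPM of Klk1b21, Klk1b24 and Klk1b27, the lowest of the controls in each case. With the Het difference subtracted, Klk1b16 had a difference of 0.43 (adjusted p = 0.997). The Klk1b16 call was lost without any 1 KO library (adjusted p up to 0.133). The list of 39 tested serine proteases, which holds Klk1b22 but not Klk1b16, had no call by limma or limma-voom. Of the 39, 9 had an unadjusted p under 0.05, beside 12.6% of all tested genes, and the median was 0.05. Among 32 tested protease inhibitors Serping1 and Cst3 were called higher in KO1 and none higher in KO2, beside 0.191% and 0.154% of all tested genes. By limma-voom 1 member was called. At 9 KO1 lay above KO2 without overlap and at 1 below, beside 9.79% and 7.45% of all tested genes. The median difference was -0.27, and 10 had an unadjusted p under 0.05, beside 12.6% of all tested genes. Cst3, cystatin C, was at 319, 332 and 282 RPM in KO1 and at 190, 197 and 159 RPM in KO2 (-0.77, SE 0.161, adjusted p = 0.0410), a call lost without any 1 KO library (up to 0.169). Serpina5, which inhibits several proteases of the reproductive tract, was at 439, 441 and 520 RPM against 209, 305 and 282 RPM (-0.83, adjusted p = 0.0702).

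The other large differences with KO2 higher were mostly of genes near 0 in KO1. Bpifb5 had the largest, 3.61 (SE 0.784, adjusted p = 0.04999), at 2.10, 1.49 and 0.654 RPM in KO1 and at 22.2, 20.3 and 46.3 RPM in KO2. Its controls spread from 0.631 to 21.6 RPM, with Het replicate 1 the lowest. With the Het difference subtracted it was 0.34 (adjusted p = 0.997), and Bpifb5 was called in 8 of 22 alternatives. The odorant receptor Olfr1188 had 1 read over the 3 KO1 libraries and 161 over the 3 KO2 libraries (0.14, 0 and 0 RPM against 7.98, 3.95 and 11.4 RPM), and Het replicate 1 had none. Its difference was 2.97 (adjusted p = 0.0454), and -0.09 (adjusted p = 0.998) with the Het difference subtracted. Tpbg, a membrane glycoprotein, was at 0, 2.24 and 0.164 RPM against 11.7, 6.53 and 8.84 RPM (2.66, adjusted p = 0.0173) and overlaps 9330154J02Rik in the table. Het replicate 1 was its lowest control at 0.757 RPM, and the controls of number 2 held 3.58 RPM or more. With the Het difference subtracted, Tpbg had a difference of 1.17. Nmur1, a receptor for neuromedin U, was at 1.54, 0.249 and 0.654 RPM against 8.20, 4.55 and 8.49 RPM (2.18, adjusted p = 0.0173). The vomeronasal receptor Vmn1r181 (1.99, adjusted p = 0.0407) and Zfp799 (1.82, adjusted p = 0.0408) belong to large families of like genes, as Olfr1188 does, so their reads are uncertain.

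Tsc22d1, a regulator of transcription, was higher in KO2 at a high level. It was at 49.0, 52.6 and 36.3 RPM in KO1 and at 128, 225 and 167 RPM in KO2, with 77.6 to 262 RPM in the controls. KO1 lay below all controls and KO2 among them, and the difference was 1.87 (SE 0.263, adjusted p = 0.0027). Pctp, which carries phosphatidylcholine, was at 8.55, 6.09 and 7.85 RPM against 17.9, 18.8 and 32.0 RPM, with controls at 17.9 to 25.6 RPM (1.46, SE 0.243, adjusted p = 0.0111). With the Het difference subtracted, Pctp was at 1.83 (adjusted p = 0.396) and Tsc22d1 at 1.27 (adjusted p = 0.893). Ppm1d, a phosphatase that acts on the p53 pathway, was at 254, 199 and 215 RPM against 377, 412 and 357 RPM and was named after its values were seen (0.78, SE 0.126, adjusted p = 0.00995). Its controls held 308 to 448 RPM, so that KO1 was below them and KO2 within them. The calls of Pctp and Ppm1d were lost without KO1 replicate 2, and also without KO2 replicate 6 and KO2 replicate 5 respectively (adjusted p up to 0.0703). Apoc2, an activator of lipoprotein lipase, was at 16.7, 10.9 and 8.34 RPM against 35.2, 31.0 and 31.0 RPM (1.41, adjusted p = 0.0340) and overlaps Apoc4 in the table.

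The remaining large differences with KO1 higher covered low and moderate levels. Fam132a was at 37.97, 42.9 and 38.1 RPM in KO1 and at 8.20, 4.86 and 8.15 RPM in KO2, with 3.87 to 11.9 RPM in the controls (-2.36, SE 0.336, adjusted p = 0.0027). Rbm45, an RNA-binding protein, was at 20.7, 19.1 and 27.3 RPM against 4.43, 5.31 and 4.48 RPM (-2.01, adjusted p = 0.0111). Zbed3 was at 53.1, 128 and 122 RPM against 19.9, 23.4 and 28.1 RPM (-1.95, adjusted p = 0.0408), and 1 control reached 115 RPM. Gdf9, a growth factor known from oocytes, was at 5.89, 3.48 and 11.6 RPM against 0, 0 and 0.115 RPM, or 141 reads against 1 (-2.82, adjusted p = 0.0236). Lrrc38 was at 6.03, 7.58 and 1.47 RPM in KO1 and had no read in KO2. Its difference was -2.41 (SE 0.448, adjusted p = 0.0241). The KO1 mean of 5.03 RPM was 33.2-fold the limit of 3 reads over the KO2 set (0.151 RPM). This ratio is of RPM without the added 1 and leaves out the spread of the KO1 libraries.

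Pdpn, podoplanin, was at 11.8, 11.7 and 15.4 RPM against 0.222, 3.49 and 2.18 RPM (-2.42, adjusted p = 0.0407), and lies 50.2 kb from Lrrc38 on chromosome 4. Crmp1, known from axon guidance, was at 28.6, 22.99 and 42.4 RPM against 8.86, 6.53 and 3.90 RPM (-2.13, adjusted p = 0.0340) and overlaps Evc. Afap1l2 (-2.51, adjusted p = 0.0242) and the carboxypeptidase Cpz (-2.23, adjusted p = 0.0280) were also among the 12 largest. Gdf9, Lrrc38, Crmp1, Pdpn, Fam132a and Rbm45 had their highest control value in Het replicate 1, at 4.92, 0.631, 29.4, 4.17, 11.9 and 14.3 RPM. The call of Rbm45 was lost without KO1 replicate 3 (adjusted p = 0.0601), while the calls of the others named here, Fam132a apart, were lost without 4 or 5 of the KO libraries in turn.

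Relative to the 7 controls, the 31 genes higher in KO1 and the 25 higher in KO2 lay differently, and the choice of the genes used the same KO libraries. A set overlaps the controls here where its range meets theirs, even if some of its libraries lie beyond them. Of the 31, KO1 was above all controls and KO2 overlapped them at 22, both sets were above at 4, KO1 overlapped and KO2 was below them at 2, both were below at 1 and both overlapped them at 2. Of the 25, KO1 was below all controls with KO2 overlapping them at 12, KO2 was above them with KO1 overlapping at 5, and both sets overlapped them at 8. Het replicate 1 lay beyond the 6 controls of number 2 on the side of KO1 at 28 of the 56 called genes and on the side of KO2 at 3, beside 15% and 11.9% of all tested genes. The other 6 controls each lay beyond the rest on the side of KO1 at 1 to 12 of the 56, beside 11.3% to 17.4% of all tested genes. On the side of KO2 they did so at 5 to 12 of the 56, beside 12.4% to 17.4%. Among the controls only Het replicate 1 carries title number 1. A difference between the numbers that does not depend on genotype thus cannot be told apart from a difference of that library.

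When the difference of the Het libraries by number was subtracted, 4 genes were called over the whole table, of which 2 were among the 56, C4b (-2.65, adjusted p = 0.0443) being 1 of them. The direction was kept at 55 of the 56. This count is no separate support, because the subtracted difference contains the KO2 minus KO1 difference by which these genes were chosen. The subtraction rests on 1 library of Het number 1, whose spread is assumed to be that of the other groups.

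By position, 11 of the 56 called genes (19.6%) lie on chromosome 2, which holds 8.41% of the tested genes, and 8 (14.3%) lie on chromosome 11 with 8.37%. On chromosome 2, 4 were higher in KO2 and 7 in KO1. In 5 pairs 2 called genes lay within 0.25 Mb of each other. The members of 3 pairs moved together, H2-K1 with Psmb9, Pdpn with Lrrc38, and Cst3 with 8030411F24Rik. In the other 2 pairs they moved apart. Apoc2, higher in KO2, lies 14.7 kb from Apoe, higher in KO1, and Prdx6b, higher in KO2, lies 116.6 kb from Frzb, a secreted Wnt antagonist higher in KO1. Prdx6b was at 245, 219 and 237 RPM in KO1 and at 315, 400 and 421 RPM in KO2 (0.69, adjusted p = 0.0347), and Frzb was at 91.6, 73.2 and 78.3 RPM against 32.1, 30.4 and 22.6 RPM (-1.49, adjusted p = 0.0450). Both were named for their position after their values were seen.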

How the data were processed

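The deposited table holds log2 RPM (reads per 1e6 reads) made by the authors for 25965 genes in 13 libraries. Per the labels, about 2 ng of RNA per library was amplified with 11 cycles of PCR. The submitters' processing notes name the build mm10 and the tools Trim Galore 0.6.6 and FastQC 0.11.8. Neither labels nor header name the aligner, the counting program or its strand setting. Values were turned back into RPM, with genes at the lowest value (0.9 read) set to 0. At least 99.96% of values were whole reads within 0.01 read. The limit of 3 reads (95% confidence) covers counting error only, as PCR copies carry no molecular identifiers.

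Groups came from the titles (WT, Het, KO1 and KO2). Each library was taken as 1 mouse, as the design text counts mice. limma 3.58.1 with a mean-variance trend was run in R 4.3.3 on log2(RPM + 1) of all 13 libraries with the contrast KO2 minus KO1, and two-sided p-values were adjusted by Benjamini-Hochberg over 16235 genes at 0.05. Fold changes, that of Lrrc38 apart, are of RPM + 1, so they understate changes of low genes. Reference levels came from a fit with control, KO1 and KO2. The script was tested on simulated data. Alternatives were other pseudocounts, filters, scalings, limma-voom on recovered reads, the KO libraries alone, each library left out and subtraction of the Het difference by number.

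The KO libraries and the 34 gene lists were chosen with earlier results of these data known. Lists are described by counts and medians, without a set test. Genes named were Wfdc15a, the 12 largest called differences on each side, up to 3 called members of a list or else the 1 with the lowest p, and 13 reference markers. Some called genes are not reported here. Others are said to be named after their values were seen, or stand as partners in a gene family, list or pathway. Symbols and coordinates are the table's, and 38 of 56 called genes had a RefSeq promoter window.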

Additional observations from a re-analysis of the deposited data

Results flagged for a closer look

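The number of genes called between the KO2 and KO1 libraries, 56, drew attention because both sets carry the same genotype label and the test of their difference passed for these genes.

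In 9 of 68 named genes, 1 of the 7 controls stood apart from the others by more than Dixon's critical value at the 95% level, which chance exceeds in about 1 of 20 groups. The test used RPM without a log, so the rate of 1 in 20 may not hold for these genes. All 9 were flagged at their highest control. In 4 of the 9 the library was Het replicate 1: Gdf9 at 4.92 RPM, Lrrc38 at 0.631 RPM, Crmp1 at 29.4 RPM and Pdpn at 4.17 RPM. In WT replicate 3 these were Nmur1 at 16.1 RPM, Serping1 at 51.1 RPM and the smooth muscle actin Acta2 at 89.9 RPM. The others were Zfp799 at 3.24 RPM in WT replicate 1 and Ndufa1 at 29.8 RPM in Het replicate 2. These genes are not independent of each other, and no cause was tested.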

How the results depend on the processing

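No paired analysis was possible because the KO1 libraries carry replicate numbers 1 to 3 and the KO2 libraries 4 to 6. The 56 called genes (25 higher in KO2, 31 lower) became 20 with no filter on low values (7 and 13), 35 with limma-voom (11 higher), 120 with the KO libraries alone (44 and 76) and 4 with the Het difference subtracted (0 and 4), where 845 had an unadjusted p under 0.05. With quantile normalization 39 were higher in KO2, of 78. The share of higher calls was 44.6%, and 31.4% with limma-voom. Leaving out 1 library gave 11 to 114 called genes, 3 to 56 higher and 8 to 58 lower. Against the controls it gave 2268 to 3759 calls for KO1 and 1041 to 2222 for KO2, the lowest without KO1 replicate 3 and KO2 replicate 5. Wfdc15a kept its direction but not its call with no filter (1.10, adjusted p = 0.133), with limma-voom (1.18, 0.0732) and with the Het difference subtracted (0.815), and ranged from 0.858 to 1.25 with 1 library left out. Of the 56, 2 were called in all 22 alternatives, C4b among them. Directions reversed, with the Het difference subtracted, for Olfr1188 (-0.0889), Hist2h2be (-0.282), Alas2 (0.0128) and Rxra (-0.719), and with quantile normalization for Cyp17a1 (0.0143). With 1 library left out, Alas2 ranged from -0.644 to 0.125, Sycp3 from -0.200 to 0.0524 and Acrv1 from -0.0790 to 0.0127. Of these genes only Olfr1188 was called. The cause was not tested. At 4.22 to 10.1 M reads per library, genes near 1 RPM rest on few reads.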
